A study of Bos grunniens x Bos taurus and Bos grunniens with 6 samples.

Results

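The proteasome is the protease of the cytosol and nucleus that degrades ubiquitin-tagged proteins. Its barrel-shaped 20S core is built of rings of alpha subunits (PSMA genes), which gate the entry, and rings of beta subunits (PSMB genes), some of which are the peptidases. A 19S cap, with an ATPase base (PSMC genes and some PSMD genes) and a lid (other PSMD genes), binds and unfolds tagged proteins, while other activators (PSME genes) can bind the same end of the core. Some cells exchange subunits. Interferon-responsive cells build an immunoproteasome with the peptidases PSMB8, PSMB9 and PSMB10, and male germ cells build a spermatoproteasome with the alpha subunit PSMA8, a paralog of PSMA7, which is often capped by the activator PSME4 (PA200).

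The proteasome genes described here are all rows of the deposited table whose symbol, in upper case, was a PSMA to PSMG gene name, POMP or ADRM1. This gave 51 of 18918 genes under 47 symbols. The symbol PSMA8 itself was not among them, but the row listed as PSMA7L is described in the table as the alpha 8 subunit and is called PSMA8 below. PSMA2, PSMA7, PSMB6 and PSMG3 each stood on 2 rows, and the less abundant row is called copy 2. Reads of such copies, and of the paralogs PSMA7 and PSMA8, can be shared between rows, so their split is uncertain. PSMA4, PSMD6 and PSMG1 were not analysed here.

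RNA-seq of testis tissue was compared between 3 cattle-yak (TES5, TES6 and TES7), male F1 animals of a Jersey cattle sire and a Gannan yak dam, and 3 male Gannan yaks (Yak8, Yak9 and Yak10), with 1 library per animal and all animals 4 years old. The cattle-yak testes were taken by castration and the yak testes after euthanasia, in different counties, so these conditions cannot be told apart from the cross. Reads of both groups were mapped to the yak genome, and reads from the cattle allele of a cattle-yak therefore had to align to yak sequence. The values are FPKM, fragments counted on a gene relative to its length and to the depth of the library, so that levels of different genes can be compared. Values with ± are the mean and SD over the 3 animals of a group.

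The values rest on 11175100 to 11834987 fragments on genes per cattle-yak library and on 12991641 to 13136129 per yak library. Markers of spermatids were near absent in cattle-yak: the 6 measured genes of elongating spermatids summed to 15.4 to 75.1 FPKM per library, against 8855 to 10862 in yak, and the 5 of round spermatids to 6.20 to 27.4 against 514.6 to 560.1. Sertoli, Leydig and myoid markers were higher. By the thresholds given below, 12 of 12, 6 of 6 and 5 of 5 were called higher (33.4% of all genes). Endothelial markers were mixed: 2 of 6 were called higher and 1, VWF, lower (20.8% of all genes). Leukocyte markers were also mixed and are given below. Spermatogonial markers were called higher in 7 of 8 genes (33.4% of all genes). In such bulk tissue fewer cells of a type and less RNA per cell cannot be told apart, and the part of this shift in tissue make-up in each result below was not tested.

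Of the 51 proteasome rows, 49 had a mean level of at least 0.5 FPKM and entered a limma test of log2 (FPKM + 1), fitted over all 15042 such genes. Genes with a log2 fold change beyond 1 in either direction were called if p, adjusted by Benjamini-Hochberg, was under 0.05. Of these rows 13 were called higher in cattle-yak (26.5%), against 33.4% of all genes tested, and 7 were called lower (14.3%), against 20.8%. In all 20 rows were called, against 54.2% of all genes, and 29 were not. The p threshold alone was passed by 45 rows (81.9% of all genes). Their median log2 fold change was 0.74, beside 0.51 over all genes, and whether the called shares differ from those of other genes was not tested. The values of the groups did not overlap in 45 of the 49 rows (91.8%), against 84.1% of all genes tested. The rows not tested were copy 2 of PSMB6, listed at 0 in 5 of the libraries, and copy 2 of PSMG3, with 1 fragment in Yak8 and 2 in Yak9.

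**Figure D1:**
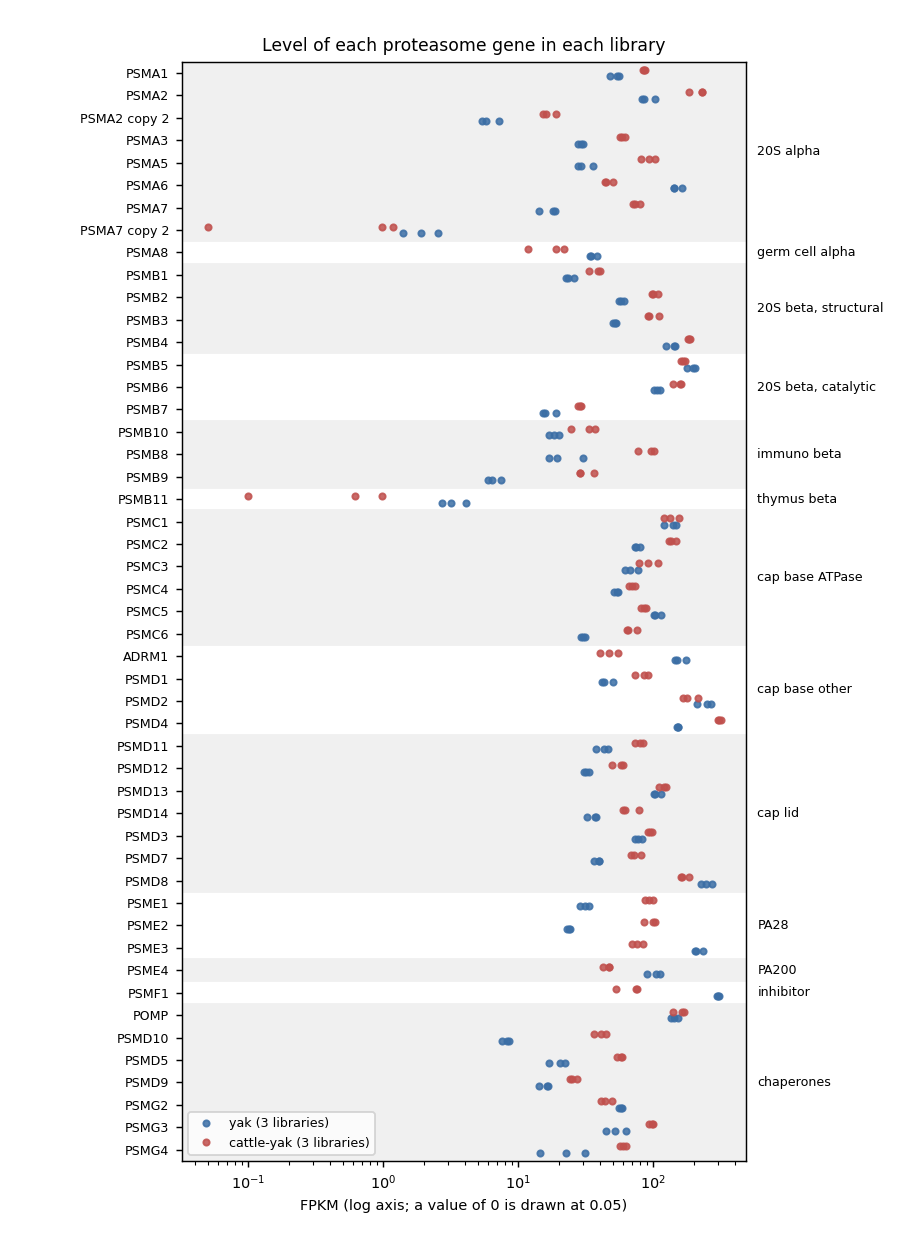
FPKM (x axis, log scale) of each of the 49 tested proteasome rows (y axis, grouped by subunit class), with 1 point per library, cattle-yak in red and yak in blue. For PSMA6, PSMA8, PSMB11, ADRM1, PSME3, PSME4 and PSMF1, the 7 rows called lower, every red point lies to the left of every blue point.

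Because 0.51 was the shift of the median gene, the main results below are also given after scaling that removes it. With median-of-ratios scaling, which brought the median over all genes to −0.00, 5 proteasome rows were higher (17.7% of all genes) and 9 lower (27.9%). As a further reference the libraries were centred on the geometric mean of the 13 measured constitutive 20S subunits, a choice made after the data were seen. That mean was 85.1, 85.1 and 91.9 FPKM in TES5, TES6 and TES7, and 53.0, 53.2 and 56.7 in Yak8, Yak9 and Yak10. The constitutive core was therefore higher in every cattle-yak library, and centring on it left the median gene at −0.06. Relative to their core, 5 rows were higher (16.3% of all genes) and 12 lower (28.7%) in cattle-yak, and the values of the groups were apart for 36 rows (79% of all genes). The 13 core subunits are among the rows counted and also set this reference. These counts are thus partly fixed by design and not fully comparable with the shares of all genes.

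The rings of the 20S core did not change in step. Among the alpha subunits PSMA7, PSMA5 and PSMA2 were called higher, PSMA6 was called lower, and PSMA1 and PSMA3 were not called. PSMA5 had 81.4, 93.5 and 102.9 FPKM in TES5, TES6 and TES7, and 29.4, 27.8 and 36.1 in Yak8, Yak9 and Yak10, a log2 fold change of 1.55. PSMA2, the most abundant alpha subunit in cattle-yak, had 215.2 ± 25.8 FPKM against 89.9 ± 10.7 in yak, and its copy 2 had 16.7 ± 1.95 against 6.13 ± 0.91. These rows and PSMA5 were no longer past the fold threshold with median-of-ratios scaling, at 0.63 for PSMA2, 0.76 for its copy 2 and 0.94 for PSMA5. PSMA3, at 0.999 in log2 fold change, stood just under the threshold and passed it with either smaller pseudocount (1.02), as TPM (1.03), and without TES5 (1.03), TES6 (1.005), Yak8 (1.001) or Yak10 (1.03). It had 0.39 with median-of-ratios scaling and 0.33 relative to the core. PSMA1 had 0.70, close to the shift of the median gene.

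PSMA6 went against the rest of its ring. It had 43.7, 44.3 and 50.0 FPKM in TES5, TES6 and TES7, and 143.1, 141.4 and 163.9 in Yak8, Yak9 and Yak10. The groups lay far apart, with little spread within either. The log2 fold change was −1.68 (standard error 0.10, adjusted p = 1.9e-06 from limma), and −2.29 with median-of-ratios scaling. Within a library, PSMA6 stood at 0.54 ± 0.035 times the median of the other 5 alpha subunits in cattle-yak and at 4.83 ± 0.27 times it in yak. The assembled ring holds its alpha subunits in equal number, and the transcript levels in yak testis were far from equal.

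The opposite case was PSMA7, whose place in the ring PSMA8 can take. PSMA7 (ENSBGRG00000023084) had 71.0, 73.1 and 80.4 FPKM in TES5, TES6 and TES7, and 18.8, 14.3 and 18.0 in Yak8, Yak9 and Yak10. Every cattle-yak library was above every yak library, with a log2 fold change of 2.08 (standard error 0.12, adjusted p = 1.7e-06 from limma). In yak PSMA7 was the least abundant of the main rows of the alpha ring. Its copy 2 had at most 20 fragments in any library and a log2 fold change of −0.83, past the p threshold but not the fold threshold, except with median-of-ratios scaling (−1.14), with TPM (−1.05), without TES6 (−1.05) and relative to the core (−1.17).

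PSMA8 (ENSBGRG00000024651), the germ cell subunit, had 21.8, 11.9 and 19.0 FPKM in TES5, TES6 and TES7, from 257, 132 and 219 fragments. In Yak8, Yak9 and Yak10 it had 34.8, 34.0 and 38.4 FPKM, from 455, 443 and 497 fragments. All cattle-yak libraries were below all yak libraries, and TES6 was the lowest. On the log2 scale the fold change was −1.02 (standard error 0.20, adjusted p = 1.6e-03 from limma), −1.62 with median-of-ratios scaling and −1.68 relative to the core. It came under the fold threshold without TES6 (−0.78) or without Yak10 (−0.97). TES6 was also the lowest cattle-yak library for the spermatocyte markers DMC1 (19.6 FPKM, against 45.0 and 44.9 in TES5 and TES7), SYCP1 (26.9 against 47.7 and 42.5) and SYCP3 (59.4 against 99.4 and 114.1), but PIWIL1 (6.99 FPKM, against 25.5 and 14.6 in TES5 and TES6) and CCNA1 (4.49 against 9.54 and 6.52) were lowest in TES7. Of the 8 measured spermatocyte markers 1 was called higher and 2 lower (33.4% and 20.8% of all genes). Together the 8 summed to 191.3 to 314.6 FPKM per library in cattle-yak, against 407.1 to 417.0 in yak. That sum was carried by PIWIL1 and CCNA1, the genes called lower, without which the 6 others summed to 170.2 to 280.7 FPKM in cattle-yak, overlapping 173.9 to 209.8 in yak.

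Set against each other within a library, where the scaling between libraries cancels, PSMA8 made up 23.5%, 14.0% and 19.1% of the FPKM of PSMA8 and PSMA7 together in TES5, TES6 and TES7. In Yak8, Yak9 and Yak10 it made up 65.0%, 70.3% and 68.1%. PSMA8 was thus the more abundant transcript of the pair in every yak library and the less abundant in every cattle-yak library. The ratio of PSMA8 to PSMA7 was 9.28-fold lower in cattle-yak. How that difference divides between the genes depends on the scaling: PSMA7 moved more than PSMA8 in FPKM (2.08 against −1.02 in log2 fold change) and less with median-of-ratios scaling (1.48 against −1.62). The share differed by 49.0 points (18.9% ± 4.77 against 67.8% ± 2.71), with p = 0.1 by a two-sided exact permutation test. This is the smallest p that 3 animals against 3 allow, and it was 0.125 after adjustment over the 5 shares examined. Summing both PSMA7 rows left the share difference in the same direction.

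**Figure D2:**
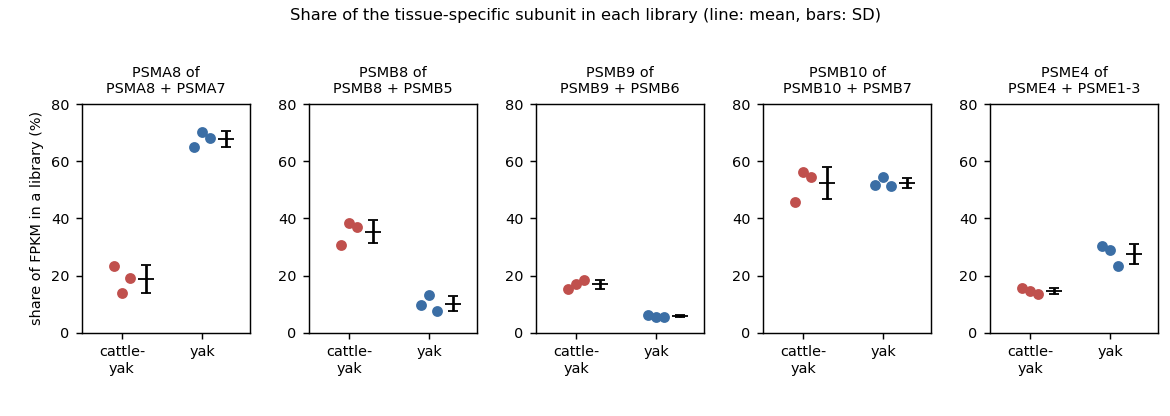
Share of FPKM (y axis, in percent) held within each library by PSMA8, PSMB8, PSMB9, PSMB10 and PSME4 out of the subunits each panel names, for 3 cattle-yak (red) and 3 yak libraries (blue), with the group mean as a line and its SD as bars. The groups lie apart in every panel but that of PSMB10, where they overlap, at 45.8% to 56.4% in the cattle-yak libraries and at 51.3% to 54.4% in those of yak.

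The beta rings moved less. The structural subunits PSMB1, PSMB2, PSMB3 and PSMB4 had log2 fold change values of 0.62, 0.80, 0.92 and 0.42, all past the p threshold and none past the fold threshold. With median-of-ratios scaling they stood between −0.20 and 0.31. Among the constitutive peptidases, PSMB6 (caspase-like activity) had 153.1 ± 11.4 FPKM in cattle-yak against 106.3 ± 5.36 in yak, and PSMB7 (trypsin-like activity) had 28.5 ± 0.59 against 16.7 ± 1.93. PSMB5, which carries the chymotrypsin-like activity, was the only one of them lower in every cattle-yak library, with 173.0, 161.2 and 164.8 FPKM in TES5, TES6 and TES7 against 178.3, 198.1 and 203.7 in Yak8, Yak9 and Yak10. Its log2 fold change of −0.21 did not pass the p threshold (adjusted p = 0.056 from limma). Relative to the core, whose mean includes PSMB5 itself, it had −0.90 (adjusted p = 3.7e-05 from limma), under the fold threshold.

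The immunoproteasome peptidases were higher in cattle-yak, but unequally. PSMB8 (ENSBGRG00000022108), the interferon-induced counterpart of PSMB5, had 76.8, 100.7 and 96.4 FPKM in TES5, TES6 and TES7, and 19.3, 29.9 and 17.0 in Yak8, Yak9 and Yak10. PSMB9 (ENSBGRG00000021991), the counterpart of PSMB6, had 28.6, 28.8 and 36.3 FPKM against 7.47, 6.36 and 5.99. For both, the lowest cattle-yak library stood more than 2 times as high as the highest yak library. The log2 fold change was 2.03 for PSMB8 (standard error 0.21, adjusted p = 3.1e-05 from limma) and 2.08 for PSMB9 (0.14, 3.2e-06), and 1.43 and 1.51 with median-of-ratios scaling. PSMB10 (ENSBGRG00000023431), the counterpart of PSMB7, had 24.5, 37.1 and 33.3 FPKM in cattle-yak and 16.8, 18.3 and 19.9 in yak. Its log2 fold change of 0.74 (adjusted p = 2.7e-03 from limma) was not past the fold threshold and was 0.14 with median-of-ratios scaling.

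The same contrast appeared in the exchange with the constitutive partners. PSMB8 held 35.4% ± 4.08 of PSMB8 and PSMB5 in cattle-yak and 10.2% ± 2.75 in yak. PSMB9 held 16.9% ± 1.59 of PSMB9 and PSMB6 against 5.84% ± 0.39. PSMB10 held 52.2% ± 5.62 of PSMB10 and PSMB7 against 52.4% ± 1.72, and the groups overlapped. The exact permutation test (two-sided) gave p = 0.1 for PSMB8 and PSMB9 and p = 1 for PSMB10, or 0.125, 0.125 and 1 after adjustment over the 5 shares. Together the immunoproteasome subunits made up 26.5% to 33.6% of the FPKM of the 6 peptidases in cattle-yak, against 11.7% to 14.6% in yak. In both groups the constitutive peptidases thus held the larger part.

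Of the genes that are induced by interferon or serve antigen processing beside the immunoproteasome, 7 of 9 measured were called higher and none lower (33.4% and 20.8% of all genes). Their median log2 fold change was 1.81, or 1.19 with median-of-ratios scaling, under which 6 were called. TAPBP, the chaperone that links the peptide transporter to class I molecules, had 2.31. IRF1, a transcription factor that acts on the immunoproteasome genes, had 42.6 ± 3.68 FPKM in cattle-yak against 8.28 ± 2.43 in yak, a log2 fold change of 2.27. The endoplasmic reticulum chaperones CALR, at 0.95, and PDIA3, at 0.22, were not called. The leukocyte markers did not move as one list: 4 of 9 measured genes were called higher, among them PTPRC (12.8 ± 3.61 FPKM against 3.38 ± 1.33), and 2 were called lower, AIF1 (3.55 ± 0.75 against 61.3 ± 7.20) and CD14 (8.93 ± 1.18 against 27.3 ± 1.81). Over all genes tested 33.4% were called higher and 20.8% lower. With median-of-ratios scaling 1 marker was higher (17.7% of all genes) and 2 lower (27.9%). The list summed to 60.2 to 91.2 FPKM per library in cattle-yak, against 103.1 to 125.5 in yak, but without AIF1 and CD14 the 7 others summed to 48.2 to 76.7 in cattle-yak, above 19.9 to 36.2 in yak. In cattle-yak both PTPRC and PSMB8 were lowest in TES5 and highest in TES6. In yak both were lowest in Yak10 and highest in Yak9. CD3E and NKG7 shared this order, but the other leukocyte markers did not. CD68, CSF1R, AIF1 and CD14 were lowest in TES7, CD163 was highest in TES7, and CD3D was highest in Yak8. PSMB9 also departed from it, being highest in TES7 and Yak8. The part of leukocytes in the level of PSMB8 was not tested.

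PSMB11, the thymus peptidase, was barely detected in cattle-yak, with 10, 6 and 1 fragments in TES5, TES6 and TES7 and 36, 47 and 31 in Yak8, Yak9 and Yak10. It was called lower in cattle-yak (log2 fold change −1.50, adjusted p = 4.7e-04 from limma). With a mean of 3.34 FPKM in yak it was also the least abundant of the tested peptidases there.

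In the 19S cap 2 of 17 rows were called higher and 1 was called lower (33.4% and 20.8% of all genes). With median-of-ratios scaling none was higher and 2 were lower, ADRM1 and PSMD8. The ATPases PSMC2, PSMC3 and PSMC4 had log2 fold change values of 0.84, 0.41 and 0.38. With median-of-ratios scaling they had 0.23, −0.20 and −0.23, and relative to the core 0.16, −0.26 and −0.30. PSMC6 (67.8 ± 6.45 FPKM against 30.3 ± 1.16) was the only ATPase called, at 1.13. It was not called with median-of-ratios scaling (0.53) or relative to the core (0.46). PSMC5 had −0.32 (adjusted p = 9.9e-03 from limma), lower in cattle-yak but under the fold threshold. In FPKM PSMC1 differed by less than the spread between animals, with 135.8 ± 18.2 FPKM against 135.9 ± 14.6 (adjusted p = 0.98 from limma), but it was lower with median-of-ratios scaling (−0.62, adjusted p = 2.8e-03) and relative to the core (−0.68, adjusted p = 2.2e-03), short of the fold threshold. Each hexamer of ATPases holds 1 copy of every PSMC subunit.

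In the rest of the base the ubiquitin receptors went opposite ways. PSMD4 (RPN10), the most abundant proteasome transcript in cattle-yak, had 303.2, 308.8 and 315.1 FPKM in TES5, TES6 and TES7 and 149.3, 152.5 and 151.6 in Yak8, Yak9 and Yak10. The log2 fold change of 1.03 was 0.41 with median-of-ratios scaling. ADRM1 (RPN13; ENSBGRG00000022694) had 54.7, 40.6 and 46.8 FPKM in TES5, TES6 and TES7 and 144.4, 175.0 and 149.7 in Yak8, Yak9 and Yak10. It was called lower, with −1.71 (standard error 0.13, adjusted p = 6.4e-06 from limma), and −2.32 with median-of-ratios scaling. The scaffold subunits PSMD1 and PSMD2 had 0.87 and −0.38. PSMD1 had 0.26 with median-of-ratios scaling and 0.20 relative to the core, and passed the p threshold in neither. PSMD2 overlapped between the groups in FPKM, with values of 167.5 to 215.5 in cattle-yak, against 211.1 to 268.5 in yak. It passed the p threshold (adjusted p = 0.026 from limma) but not the fold threshold. With median-of-ratios scaling PSMD2 had −0.998, and relative to the core it was called lower (−1.06).

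No lid subunit was called. PSMD7, PSMD11, PSMD12 and PSMD14 had log2 fold change values of 0.93, 0.88, 0.77 and 0.87, PSMD14 being the deubiquitinase of the lid. With median-of-ratios scaling they had 0.32, 0.27, 0.16 and 0.27, and only PSMD7 passed the p threshold there. PSMD3 and PSMD13 had 0.28 and 0.16. PSMD3 passed the p threshold in FPKM (adjusted p = 0.019 from limma). It also passed in the opposite direction, with median-of-ratios scaling (−0.34, adjusted p = 0.013) and relative to the core (−0.40, adjusted p = 9.5e-03). PSMD13 did not pass the p threshold in FPKM (adjusted p = 0.15 from limma). PSMD13 did pass it with median-of-ratios scaling (−0.46, adjusted p = 3.8e-03) and relative to the core (−0.52, adjusted p = 1.3e-03). In FPKM PSMD8 alone was lower, with 169.6 ± 12.0 FPKM in cattle-yak against 249.3 ± 24.3 in yak, a log2 fold change of −0.55 (adjusted p = 1.3e-03 from limma). It was called lower with median-of-ratios scaling (−1.17) and relative to the core (−1.23).

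**Figure D3:**
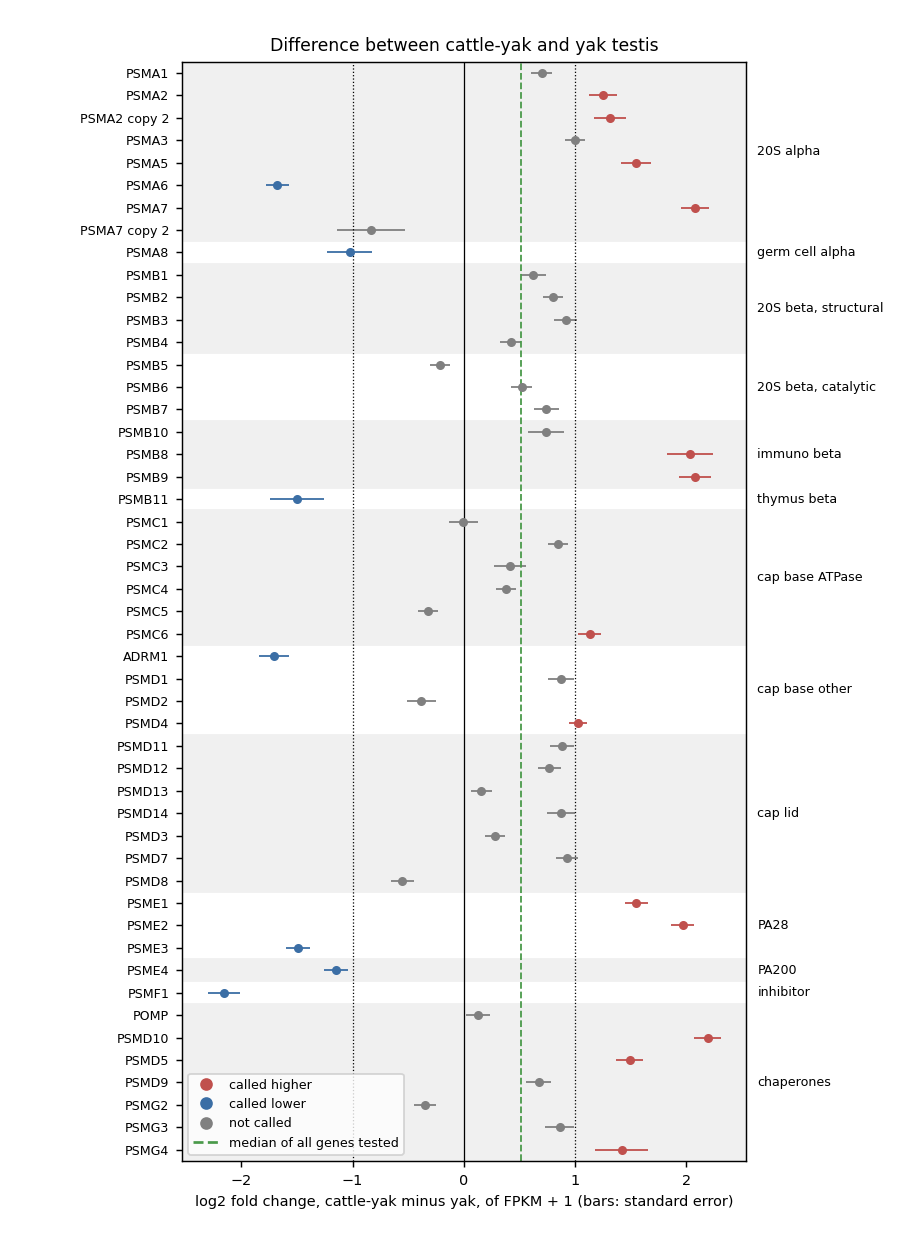
The log2 fold change of FPKM + 1 in cattle-yak against yak (x axis) for the 49 tested proteasome rows (y axis, grouped by subunit class), with the standard error from limma as bars, called rows in red (higher) or blue (lower), dotted lines at the threshold of 1 and a dashed line at 0.51, the median of all genes. Values run from −2.16 for PSMF1 to 2.19 for PSMD10, and rows of 1 class stand on both sides of 0 in the alpha ring, the constitutive peptidases, the base, the lid, PA28 and the chaperones.

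The order of the activators turned over between the groups. PSME1 and PSME2 encode the interferon-inducible PA28 alpha and beta subunits, which form 1 mixed ring, and PSME3 encodes the nuclear PA28 gamma. PSME1 had 92.8, 87.1 and 99.2 FPKM in TES5, TES6 and TES7 and 28.5, 31.3 and 33.6 in Yak8, Yak9 and Yak10. PSME2 had 84.7, 98.7 and 103.6 FPKM against 23.9, 22.9 and 24.0. Both were called higher, with log2 fold change values of 1.55 (adjusted p = 2.8e-06 from limma) and 1.97 (9.9e-07), and 0.94 and 1.36 with median-of-ratios scaling, so that only PSME2 stayed past the fold threshold. PSME1 stood at 0.98 ± 0.11 times PSME2 in cattle-yak and at 1.32 ± 0.11 times it in yak.

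PSME3 (ENSBGRG00000006709) had 76.0, 83.5 and 69.3 FPKM in TES5, TES6 and TES7, and 207.7, 205.1 and 235.5 in Yak8, Yak9 and Yak10. PSME4 (ENSBGRG00000014328), the PA200 activator linked to acetylated histones in spermatids, had 47.2, 46.6 and 42.7 FPKM against 112.6, 104.8 and 89.9. Neither gene overlapped between the groups, and PSME4 rested on at least 2741 fragments in each library. On the log2 scale the fold change was −1.49 for PSME3 (standard error 0.10, adjusted p = 4.1e-06 from limma) and −1.15 for PSME4 (0.11, 2.1e-05), and −2.11 and −1.76 with median-of-ratios scaling. In yak PSME3 ranked 4 among the 47 proteasome symbols by mean FPKM, and in cattle-yak it ranked 25. PSME4 ranked 15 in yak and 38 in cattle-yak.

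By their share of the summed activator FPKM, PSME3 held 57.8% ± 3.18 in yak and 24.6% ± 2.29 in cattle-yak. PSME4 held 27.5% ± 3.55 in yak and 14.7% ± 1.06 in cattle-yak, which did not overlap (exact permutation test, two-sided, p = 0.1, adjusted over the 5 shares 0.125). PSME1 and PSME2 held 8.34% ± 0.60 and 6.33% ± 0.081 in yak and 30.0% ± 2.12 and 30.8% ± 2.41 in cattle-yak. The 4 activators summed to 310.5 ± 8.51 FPKM in cattle-yak, against 373.3 ± 9.41 in yak.

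**Figure D4:**
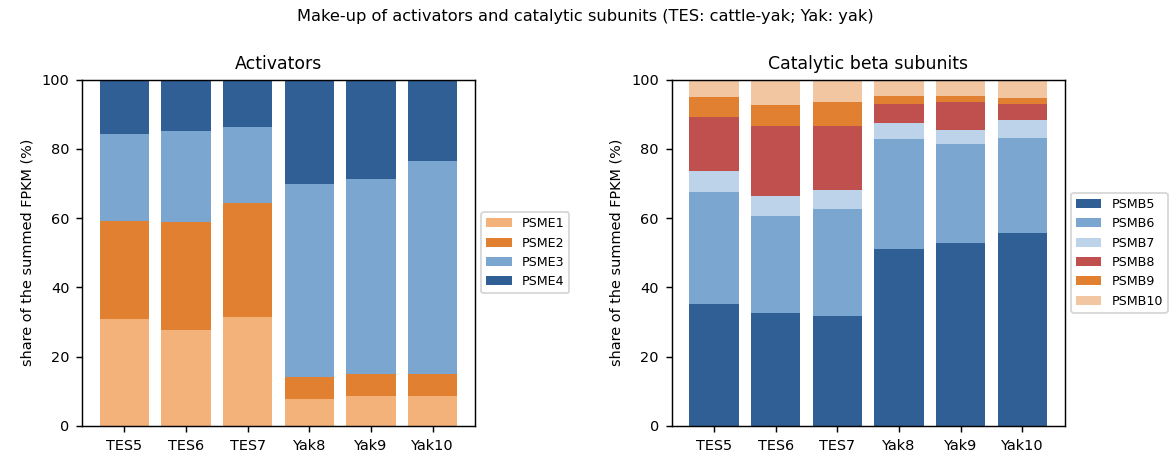
Share of the summed FPKM (y axis, in percent) held in each library (x axis) by each activator (left) and by each catalytic beta subunit (right). PSME3 and PSME4 fill most of the yak bars on the left and PSME1 and PSME2 most of the cattle-yak bars, while on the right PSMB8 holds 15.6% to 20.3% in cattle-yak, against 4.63% to 7.98% in yak.

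PSMF1 (ENSBGRG00000012880), which encodes PI31, a protein that binds the 20S core and inhibits it in vitro, was the most abundant proteasome transcript in yak. Its fall was the largest of the members on the log2 (FPKM + 1) scale, though not with a pseudocount of 0.1, where PSMB11 had −2.67 and PSMF1 −2.17. It had 294.8, 306.0 and 303.1 FPKM in Yak8, Yak9 and Yak10, and 75.1, 52.6 and 75.1 in TES5, TES6 and TES7. The log2 fold change was −2.16 (standard error 0.14, adjusted p = 3.0e-06 from limma), and −2.77 with median-of-ratios scaling. PSMF1 stood at 5.55 ± 0.20 times the geometric mean of the 20S core in yak and at 0.77 ± 0.14 times it in cattle-yak. FBXO7, a ubiquitin ligase subunit that binds PI31 and stood on 2 rows of the table, had in the more abundant of them 40.4 ± 2.07 FPKM in cattle-yak and 46.9 ± 5.84 in yak, a difference that passed the p threshold with median-of-ratios scaling (−0.81, adjusted p = 2.3e-04 from limma) but not in FPKM (adjusted p = 0.135).

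Among the assembly chaperones, those of the 19S base were mostly higher. PSMD10 (gankyrin) had the largest rise of the members, with 41.2, 36.6 and 44.8 FPKM in TES5, TES6 and TES7 and 8.27, 7.63 and 8.55 in Yak8, Yak9 and Yak10, a log2 fold change of 2.19 (standard error 0.12, adjusted p = 1.0e-06 from limma). It was 1.61 with median-of-ratios scaling. PSMD5 had 1.49 and PSMD9 0.67, and of these only PSMD5 was called, though not with median-of-ratios scaling (0.89). Among the chaperones of the 20S core, PSMG4 was called higher (1.42, and 0.82 with median-of-ratios scaling), with 14.4, 22.5 and 31.3 FPKM in Yak8, Yak9 and Yak10, a wide spread. PSMG3 had 0.86 and PSMG2 −0.35, both short of the fold threshold, though PSMG2 was called lower relative to the core (−1.02). POMP, which guides the closing of the beta rings, had 157.4 ± 16.0 FPKM against 143.6 ± 8.33, a difference not past the p threshold (adjusted p = 0.28 from limma), and −0.49 with median-of-ratios scaling (adjusted p = 4.0e-03).

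The 51 rows together held 0.72% ± 0.0045 of the summed FPKM of a cattle-yak library and 0.61% ± 0.013 of a yak library. The order of the members differed between the groups: PSMF1, PSMD8, PSMD2, PSME3 and PSMB5 led in yak, and PSMD4, PSMA2, PSMD2, PSMB4 and PSMD8 in cattle-yak. The neighbours PSMD8 and PSMD2 in yak, at 249.3 ± 24.3 and 242.9 ± 29.2 FPKM, did not differ beyond their spread. Among the 13 constitutive core subunits the highest stood 11.2 to 13.8 times above the lowest in a yak library and 6.46 to 8.25 times in a cattle-yak library. The SD of their log2 FPKM was 1.17 to 1.25 in yak and 0.86 to 0.95 in cattle-yak. The coefficient of variation between animals had a median of 9.16% over the tested rows in cattle-yak and 8.16% in yak.

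Proteins that bind the proteasome showed mixed changes, with 4 of 15 measured genes called higher and none lower (33.4% and 20.8% of all genes), or 2 and 2 with median-of-ratios scaling. ZFAND5, which stimulates the 26S particle, had 80.3 ± 5.04 FPKM in cattle-yak against 15.1 ± 1.54 in yak, a log2 fold change of 2.34, and its relative ZFAND2A had 1.79. The deubiquitinase USP14 and the scaffold ECPAS were also called higher, at 1.19 and 1.07, but with median-of-ratios scaling they had 0.60 and 0.47. UBLCP1, a phosphatase of the 26S particle, had the lowest value of the list, −0.93, followed by the ubiquitin ligase UBE3C at −0.45. Neither passed the fold threshold, and both did with median-of-ratios scaling (−1.52 and −1.05).

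Of the 7 shuttle and unfoldase genes measured, 1 was called higher and 2 lower (33.4% and 20.8% of all genes). RAD23B, which delivers tagged proteins to the particle, had 141.4 ± 7.55 FPKM in cattle-yak against 31.6 ± 0.54 in yak. DDI1, a shuttle protein with a retroviral-type protease domain, had 157.4 ± 9.86 FPKM in yak against 0.60 ± 0.41 in cattle-yak, a log2 fold change of −6.66. FAF1, a cofactor of the unfoldase VCP, had −1.19, and VCP itself had 0.89. Of the 3 genes measured that govern proteasome gene transcription, the factors NFE2L1 (1.62) and NFE2L2 (2.21) were called higher (33.4% of all genes). They had 1.01 and 1.62 with median-of-ratios scaling. Relative to the 20S core they had 0.94 and 1.56, so that NFE2L1 came under the fold threshold. NGLY1, the enzyme that removes glycans from NFE2L1, had −0.66, which passed −1 with median-of-ratios scaling (−1.27).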

How the data were processed

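Testis RNA of 3 cattle-yak and 3 yak was sequenced by the authors, who used Trimmomatic for trimming and HISAT2 for alignment, with LU_Bosgru_v3.0 of the yak as the reference, and deposited FPKM values of 18918 genes, for which they name Cufflinks (versions not given in the sources used here). These are scaled to the depth of each library, with no further scaling between libraries. Each column bore the title of 1 sample. Whole fragments and depths were recovered from the steps of the values, for 17967 genes. Levels were compared two-sided with limma 3.58.1 in R 4.3.3 on log2 (FPKM + 1), with a variance trend, over the 15042 genes with a mean of at least 0.5 FPKM. These fold changes understate those of low genes. Shares within a library were compared by exact permutation over the 20 assignments of the libraries, in Python 3.11.15. The tests were checked on simulated data. Alternatives were pseudocounts of 0.1 and 0.01, no filter, a minimum of 5 FPKM, median-of-ratios scaling, TPM, no trend, no fold threshold, voom on the fragments, both rows of a symbol, log2 ratios and the omission of each animal, with centring on the 20S core added later. Genes named are the exchangeable subunits, the highest and lowest of each class, called rows against their class, and the 2 highest and 2 lowest of each list of partner genes; other members, and partner genes beyond these, were named after their values were seen. The members, classes and lists were chosen with earlier results of these data known. No sequences of these genes were used here. The limma p-values set the difference between the groups against the spread between animals, with the variance of each gene moderated by that of other genes. The values of 1 gene of the partner lists are not reported here.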

Additional observations from a re-analysis of the deposited data

How the results depend on the processing

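The count of proteasome rows called higher, 13, moved to 5 with median-of-ratios scaling and to 5 when centred on the 20S core, and that of rows called lower, 7, moved to 12 with that centring. Without a threshold on the fold change, 33 rows passed higher and 12 lower. POMP, PSMB4 and PSMB6 lay above 0 in FPKM but at −0.49, −0.20 and −0.095 with median-of-ratios scaling and at −0.55, −0.26 and −0.16 when centred on the core, and PDIA3 at −0.39 and −0.46. PSMD3, PSMC4, PSMC3 and PSMD13 also lay above 0 in FPKM, but at −0.34, −0.23, −0.20 and −0.46 with median-of-ratios scaling. Centred on the core they had −0.40, −0.30, −0.26 and −0.52. PSMB1 fell below 0 only with that centring (−0.04). None of these was called in FPKM. The difference in the PSMB10 share, −0.18 points, ran from −2.25 to 3.02 when each animal was left out, so it had no stable direction, and the other 4 shares kept theirs in every alternative run. Of 655 values of 41 named genes under an alternative, 612 kept their direction and side of the thresholds, 26 gained a call, 9 lost one and 8 reversed. Of the gains, 14 came from dropping the fold threshold, which fixes them. All reversals came from median-of-ratios scaling (4) and centring on the core (4), as did most losses (3 and 4). PSMD3, PSMC4, PSMC3, PSMD13 and PSMB1 were not among the 41. PSMA8 lost its fold threshold without TES6 or Yak10. Depth limits PSMB11 and copy 2 of PSMA7, PSMB6 and PSMG3. No paired analysis was possible because the labels number the animals without shared numbers.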
